A study of Mus musculus with 4 samples.

Results

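The genes described here encode the enzymes and regulators of sterol and fatty acid synthesis: 38 genes chosen by name from the pathways, in 4 groups taken in pathway order, namely the mevalonate steps (7 genes), the sterol steps after farnesyl diphosphate (11), the SREBP control and sterol transport genes (6) and the fatty acid genes (14). Of these, 37 had at least 1 named probe on the arrays, 59 probes in all, and all 37 passed the filter on dim probes and were among the 21464 genes tested. Idi1, an isomerase of the mevalonate steps, had no named probe and is not analysed here. Basal epithelial cells were sorted from the prostates of adult FVB mice by flow cytometry and cultured as spheres, balls of cells that epithelial progenitors of the prostate form outside the animal. One group received 5 µM DAPT (2 arrays) and the other the DMSO vehicle (2 arrays), with medium replaced every 24 h in both. DAPT is a γ-secretase inhibitor, and γ-secretase releases the active part of Notch receptors as well as cleaving other membrane proteins. Each array carried sphere RNA in the red channel and a pooled universal mouse RNA, the reference, in the green one, and a value below is the log2 ratio of sphere over reference RNA unless a channel is named.

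Cells build cholesterol from acetyl-CoA through mevalonate, isoprenoid diphosphates, squalene and lanosterol, and they build fatty acids from the same acetyl-CoA through malonyl-CoA. SREBP transcription factors drive the genes of both routes. They are held in the endoplasmic reticulum by SCAP and the INSIG proteins while sterols are plentiful, and are cut free in the Golgi when sterols run low. In the prostate, lipid synthesis is known above all as an androgen-responsive activity of luminal and cancer cells.

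All 4 arrays lay on 1 slide. Basal keratin RNA was high in both groups (Krt5 at 4.67 and 5.17 on the DAPT arrays, against 4.67 and 4.63 on the vehicle arrays). Of 6 basal markers 1 fell with DAPT (16.7%, against 3.93% of all genes tested), none rose, and 4 had a change above 0. The marker that fell was Krt15, a basal keratin, with 4.37 and 4.06 with DAPT, against 5.29 and 5.30 with vehicle (limma adjusted p = 0.00836). Its DAPT arrays were far apart in both channels (SD 2.54 in red and 2.31 in green), and the reference channel also fell, by 2.42 ± 0.98 (limma SE). Trp63, the basal regulator, had 3.46 and 2.23 with DAPT, against 2.15 and 1.96 with vehicle. Its change of 0.80 ± 0.32 did not pass (limma adjusted p = 0.151), while 1 of its 2 probes did. The labels do not say whether the 2 samples of a group had their own cultures or animals. The p-values therefore cover the spread between these samples alone, and that spread may be technical. In RNA of whole cultures, fewer cells of a type and less RNA per cell cannot be told apart. The scanner software marked 49.6% and 50.9% of probe spots as non-uniform or as outliers on DAPT 1 and 2, against 11.5% and 29.2% on vehicle 1 and 2. The probes that stand for the 37 genes were marked in 32 cases on DAPT 1 and 34 on DAPT 2, against 4 on vehicle 1 and 18 on vehicle 2. With marked spots left out, 6 of the 37 genes could be tested and none passed. The part of these marks in the results was not tested.

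With DAPT, 8 of the 37 genes rose and none fell at an adjusted p under 0.05 (limma, Benjamini-Hochberg over all genes), a share of 21.6%, where 2.90% of all genes tested rose and 3.93% fell. The genes were chosen with earlier results of these data known. Their shares beside those of all genes, here and below, are therefore a description and not a test. Of the 8 genes with a change below 0, Insig2 alone had an unadjusted p under 0.05. The genes that rose were Hmgcs1 and Pmvk of the mevalonate steps, Sqle and Msmo1 of the sterol steps, the sterol sensor gene Insig1, and Aacs, Fasn and Elovl6 of the fatty acid genes, each by between 1.64-fold and 2.11-fold. The median change of the 37 genes was 0.44, against -0.06 for all genes tested. In 23 genes both DAPT arrays lay above both vehicle arrays (62.2%, against 22.2% of all genes), in 2 they lay below (5.41%, against 31.7%), and in 12 the groups overlapped. By the brightest probe of each gene, all 6 mevalonate genes and all 11 sterol genes had a change above 0. So did 3 of the 6 control genes, 9 of the 14 fatty acid genes and 43.6% of all genes. A dimmer probe of the sterol gene Nsdhl had a change of -0.15 ± 0.28.

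These counts depend on how the arrays are scaled. With median centring 17 of the 37 genes rose, with the scanner software's processed signals 4, with scale normalization between arrays 2, and with the sphere channel alone or with 13 debris spots of DAPT 2 kept 0. Of all 21464 genes 622 rose as reported, 1265 with median centring, 290 with processed signals and 386 with scale normalization. With the sphere channel alone 0 of all genes rose, and with debris kept 4, so a count of 0 there says little about the 37 genes. The count was 4 without DAPT replicate 2 and 5 without vehicle replicate 2.

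**Figure D1:**
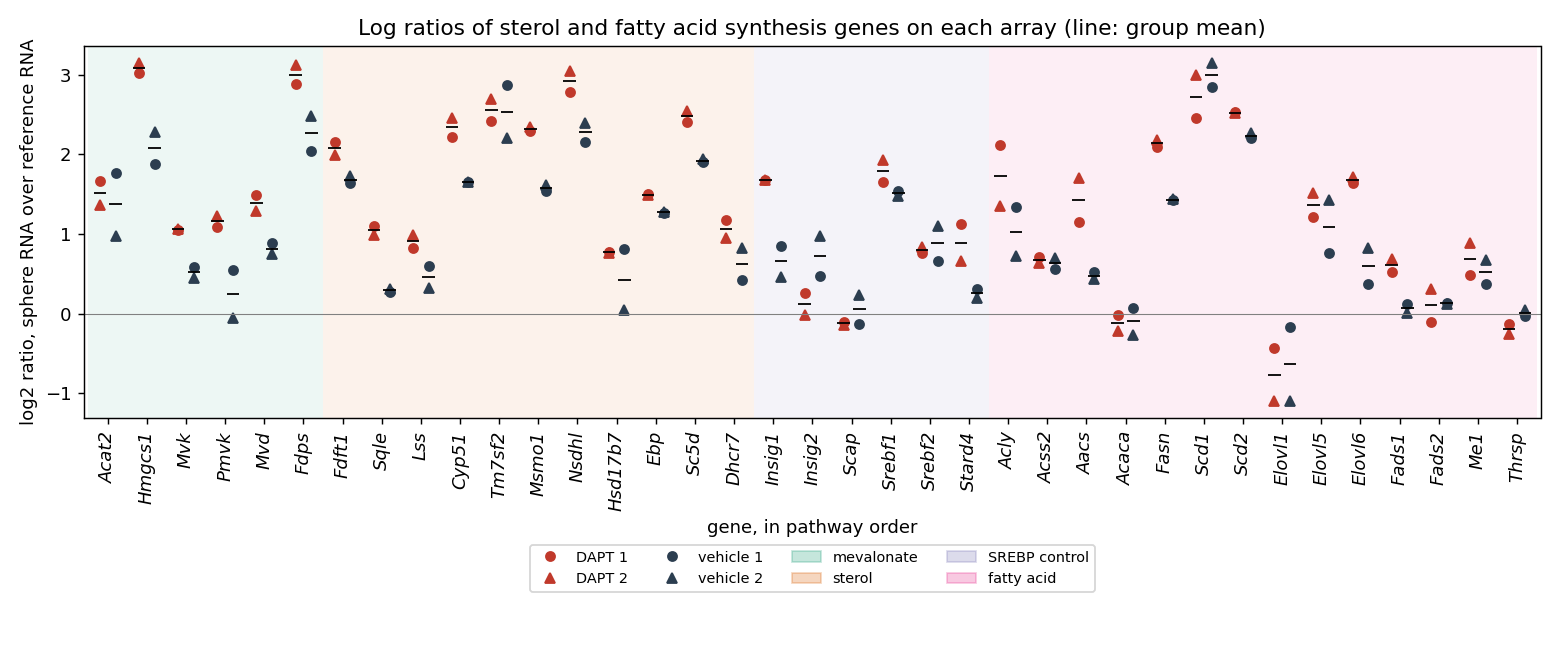
Log2 ratio of sphere over reference RNA (vertical axis) of the 37 genes in pathway order (horizontal axis) on each DAPT array (left of each pair of columns) and each vehicle array (right), with the group mean as a line and the pathway group as the shaded band. The 2 DAPT arrays lie above the 2 vehicle arrays in 23 genes, 14 of them among the mevalonate and sterol steps.

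Promoter sequences are shown for 5 of the genes that rose, with at least 1 from each pathway group, because SREBP proteins and their partner NF-Y bind such regions. RefSeq (GRCm38.p6) promoters of 300 bases, from 250 before to 50 after the annotated start, were found for 31 of the 38 genes. Capitals mark the sterol regulatory element core TCACNCCAC, the CCAAT box CCAAT and the E-box CACGTG on either strand. In Fasn a pair of CCAAT boxes on opposite strands overlap.
Hmgcs1, chr13:119690101-119690400, plus strand: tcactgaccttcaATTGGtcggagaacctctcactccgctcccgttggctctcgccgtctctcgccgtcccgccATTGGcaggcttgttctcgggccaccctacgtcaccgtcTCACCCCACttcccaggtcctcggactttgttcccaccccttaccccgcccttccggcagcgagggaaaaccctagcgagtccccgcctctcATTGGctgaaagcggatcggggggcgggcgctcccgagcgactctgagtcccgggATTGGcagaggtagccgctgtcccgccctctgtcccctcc
Msmo1, chr8:64733529-64733828, minus strand: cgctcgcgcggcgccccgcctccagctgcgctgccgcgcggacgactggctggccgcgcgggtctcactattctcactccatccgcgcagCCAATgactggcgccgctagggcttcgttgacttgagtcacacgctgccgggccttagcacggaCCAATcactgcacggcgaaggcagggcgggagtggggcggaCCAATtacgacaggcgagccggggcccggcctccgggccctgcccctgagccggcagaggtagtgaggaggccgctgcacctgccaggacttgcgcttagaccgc
Insig1, chr5:28071162-28071461, plus strand: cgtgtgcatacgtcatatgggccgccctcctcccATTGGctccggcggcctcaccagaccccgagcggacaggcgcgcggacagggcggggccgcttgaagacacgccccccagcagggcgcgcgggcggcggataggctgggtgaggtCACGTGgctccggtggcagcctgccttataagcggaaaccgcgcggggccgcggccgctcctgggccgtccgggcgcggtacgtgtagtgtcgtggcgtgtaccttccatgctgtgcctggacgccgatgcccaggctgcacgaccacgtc
Fasn, chr11:120824498-120824797, minus strand: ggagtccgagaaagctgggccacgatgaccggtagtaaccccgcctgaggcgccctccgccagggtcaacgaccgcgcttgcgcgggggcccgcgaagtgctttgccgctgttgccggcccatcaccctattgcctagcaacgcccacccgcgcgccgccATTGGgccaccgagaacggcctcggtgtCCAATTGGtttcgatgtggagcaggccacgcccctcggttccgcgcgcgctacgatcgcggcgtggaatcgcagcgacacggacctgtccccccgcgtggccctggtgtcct
Elovl6, chr3:129532136-129532435, plus strand: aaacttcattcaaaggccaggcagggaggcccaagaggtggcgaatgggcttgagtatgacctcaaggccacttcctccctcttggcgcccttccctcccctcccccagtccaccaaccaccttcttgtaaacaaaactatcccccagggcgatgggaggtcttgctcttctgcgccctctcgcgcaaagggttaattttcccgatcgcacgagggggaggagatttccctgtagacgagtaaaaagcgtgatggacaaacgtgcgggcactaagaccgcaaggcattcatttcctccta

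The Hmgcs1 promoter held the sterol element core once and CCAAT 4 times, and it was the single gene of the 31 with that core, which 1.44% of the 27025 genes with a promoter entry had. CCAAT was found for 25 of the 31 genes (80.6%), where 41.1% of all genes with an entry had it, and for 5 of the 7 genes that rose and had an entry. The E-box was found for 6 of the 31 genes (19.4%, against 8.09% of all genes), Insig1 among them. The Elovl6 window held none of these letters. These matches describe the letters of the windows and nothing more.

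In the mevalonate steps, Hmgcs1, the synthase that makes HMG-CoA, had log2 ratios of 3.02 and 3.15 with DAPT, against 1.88 and 2.28 with vehicle. The groups did not overlap, and Hmgcs1 rose by 1.00 ± 0.21 (log2, limma SE, 2.00-fold, adjusted p = 0.0142). Pmvk, the second kinase of the route, stood at 1.08 and 1.23 with DAPT, against 0.54 and -0.06 with vehicle. It rose by 0.91 ± 0.23 (adjusted p = 0.0331), with the vehicle arrays further apart than the DAPT arrays. That call was lost without DAPT replicate 2 (limma adjusted p = 0.0746) and without vehicle replicate 2 (0.154). For Hmgcs1 the call held without each array in turn.

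The other mevalonate genes did not pass. Fdps, the synthase of farnesyl diphosphate, had ratios of 2.88 and 3.12 with DAPT, against 2.05 and 2.48 with vehicle, a change of 0.74 ± 0.22 (limma adjusted p = 0.0614). It passed without vehicle replicate 2 (adjusted p = 0.0236) and without DAPT replicate 1 (0.0486). Mvd, the diphosphomevalonate decarboxylase, had a change of 0.57 ± 0.20 and Mvk, the mevalonate kinase, one of 0.54 ± 0.19, both with groups that did not overlap. Acat2, the thiolase that joins 2 acetyl-CoA units at the entry, had 1.67 and 1.36 with DAPT, against 1.76 and 0.98 with vehicle. Its groups overlapped, and the change of 0.15 had a 95% interval of -0.41 to 0.70.

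Squalene epoxidase, encoded by Sqle, adds the first oxygen of the sterol route. Its ratios were 1.10 and 0.99 with DAPT, against 0.27 and 0.31 with vehicle, and it rose by 0.75 ± 0.19 (1.68-fold, limma adjusted p = 0.037). Msmo1, the methylsterol oxidase, had ratios of 2.29 and 2.34 with DAPT, against 1.53 and 1.61 with vehicle. It rose by 0.74 ± 0.19 (1.68-fold, adjusted p = 0.0379). In both genes the arrays of a group lay close together and the groups lay well apart. Both calls were lost without any one array, with adjusted p of 0.0648 to 0.122 for Sqle and 0.0594 to 0.132 for Msmo1, while the changes stayed between 0.70 and 0.80.

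Next to these, Cyp51, the lanosterol demethylase, had 2.22 and 2.46 with DAPT, against 1.65 and 1.65 with vehicle. The change of 0.69 ± 0.20 did not pass (limma adjusted p = 0.057). Nsdhl, a dehydrogenase of the demethylation steps, had 2.78 and 3.04 with DAPT, against 2.16 and 2.39 with vehicle. Its change was 0.64 ± 0.20 (adjusted p = 0.0822). Sc5d, the sterol desaturase, had a change of 0.55 ± 0.19, the lanosterol synthase gene Lss of 0.45 ± 0.20, the last-step reductase gene Dhcr7 of 0.44 ± 0.21 and the squalene synthase gene Fdft1 of 0.39 ± 0.19, and in these 4 genes too both DAPT arrays lay above both vehicle arrays. The smallest changes of the sterol steps were those of Ebp, the sterol isomerase, at 0.22 ± 0.19, and Tm7sf2, a sterol reductase, at 0.02 ± 0.24. Tm7sf2 had 2.41 and 2.69 with DAPT, against 2.87 and 2.20 with vehicle, so the vehicle arrays enclosed the DAPT arrays.

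Among the control genes, the INSIG genes differed in sign. Insig1, itself a target of SREBP, had ratios of 1.68 and 1.68 with DAPT, against 0.85 and 0.46 with vehicle. It rose by 1.02 ± 0.21 (2.03-fold, limma adjusted p = 0.0124), and the call held without each array in turn. Insig2, whose product has the same retaining role, had 0.26 and -0.02 with DAPT, against 0.48 and 0.97 with vehicle. Both DAPT arrays lay below both vehicle arrays, and the change of -0.60 ± 0.22 did not pass (adjusted p = 0.127), though it did without vehicle replicate 1 (-0.85, adjusted p = 0.0371).

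The transcription factor genes had small differences in ratio. Srebf1 had 1.65 and 1.92 with DAPT, against 1.54 and 1.48 with vehicle, a change of 0.28 ± 0.20 (95% interval -0.16 to 0.71). Srebf2, the main sterol regulator of the pair, had 0.76 and 0.83 with DAPT, against 0.67 and 1.10 with vehicle. Its change was -0.09 ± 0.21 (interval -0.54 to 0.37), and Scap, the escort of SREBP, had a change of -0.18 ± 0.21 (interval -0.62 to 0.27). Neither interval reaches the change of Insig1. Stard4, a carrier of cholesterol between membranes, stood at 1.12 and 0.66 with DAPT, against 0.31 and 0.20 with vehicle. The groups did not overlap and the change of 0.64 ± 0.21 did not pass (limma adjusted p = 0.0958).

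**Figure D2:**
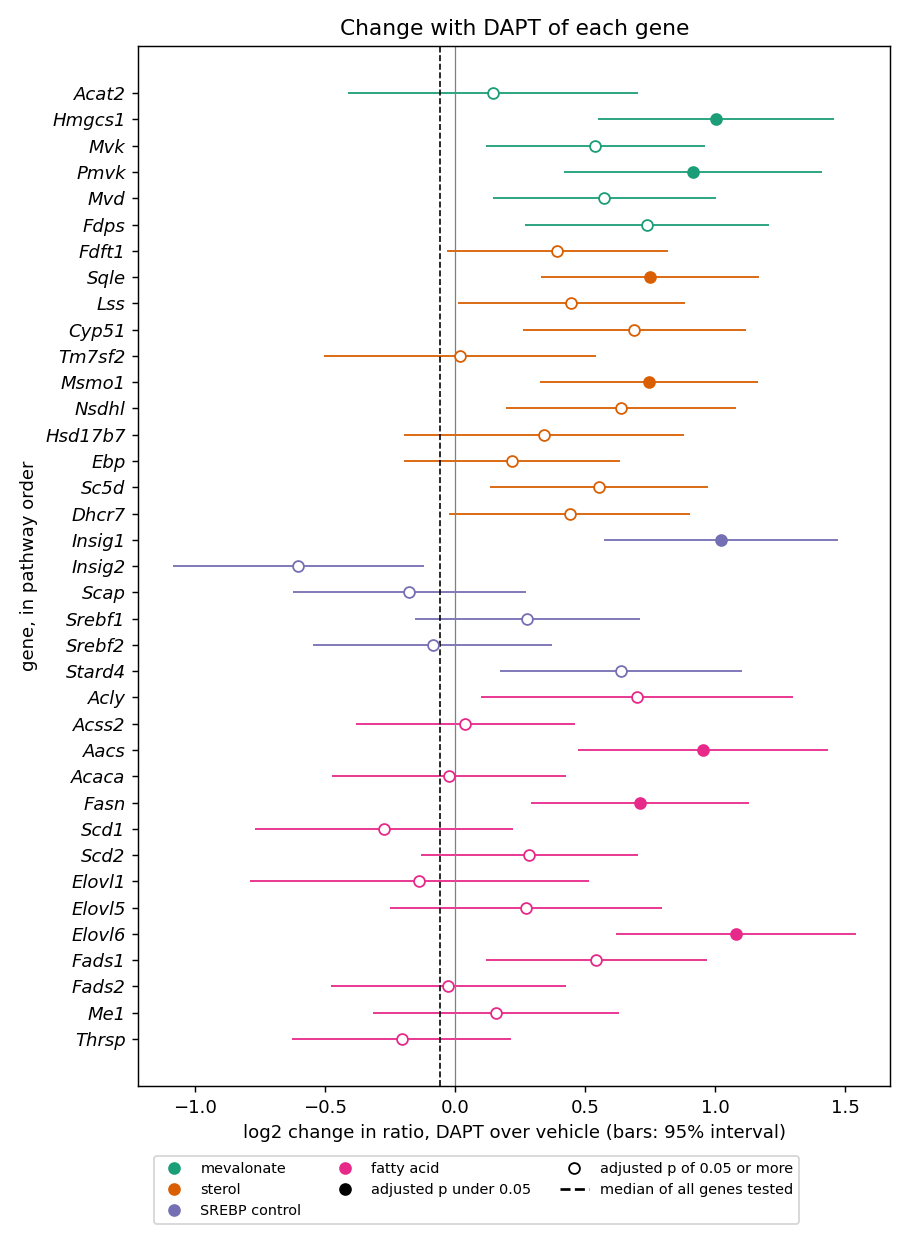
Log2 change of the ratio with DAPT over vehicle (horizontal axis) for each gene in pathway order (vertical axis), with its 95% interval from limma. Filled points have an adjusted p under 0.05, and the dashed line is the median of all genes tested at -0.06. The mevalonate and sterol genes all lie above 0, and the control and fatty acid genes lie on both sides.

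In the fatty acid group the elongase gene Elovl6, whose product extends palmitate, had ratios of 1.64 and 1.71 with DAPT, against 0.37 and 0.83 with vehicle. It rose by 1.08 ± 0.21 (2.11-fold, limma adjusted p = 0.0111), and its call held without each array in turn. Aacs, which makes acetoacetyl-CoA from ketone bodies in the cytosol, had 1.15 and 1.70 with DAPT, against 0.52 and 0.43 with vehicle. It rose by 0.95 ± 0.22 (1.94-fold, adjusted p = 0.0238) and did not pass without DAPT replicate 2 (0.165). The DAPT arrays were far apart here, and the lower of them still lay above both vehicle arrays.

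Fasn, the fatty acid synthase, had 2.09 and 2.18 with DAPT, against 1.42 and 1.43 with vehicle. It rose by 0.71 ± 0.19 (1.64-fold), close to the threshold (limma adjusted p = 0.0458). Its call was lost without any one array (adjusted p 0.0772 to 0.177) and with no filter on dim probes (0.0515). Acly, the citrate lyase that supplies acetyl-CoA, had 2.11 and 1.34 with DAPT, against 1.34 and 0.72 with vehicle. The spread between arrays of a group was as large as the change of 0.70 ± 0.28, which did not pass (adjusted p = 0.15), although it did without DAPT replicate 2 (0.0136) and without vehicle replicate 1 (0.0312). Fads1, a desaturase of polyunsaturated fatty acids, had a change of 0.54 ± 0.20 with groups that did not overlap.

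The other fatty acid genes had smaller differences in ratio. Scd1, the stearoyl-CoA desaturase, had 2.45 and 2.99 with DAPT, against 2.84 and 3.15 with vehicle, a change of -0.27 ± 0.23. Scd2, its close relative, had a change of 0.29 ± 0.19, the elongase gene Elovl5 of 0.27 ± 0.24, the malic enzyme gene Me1 of 0.16 ± 0.22 and the acetyl-CoA synthetase gene Acss2 of 0.04 ± 0.19. The desaturase gene Fads2 stood at -0.03 ± 0.21, the elongase gene Elovl1 at -0.14 ± 0.30 and the lipogenic regulator gene Thrsp at -0.20 ± 0.19. None of these passed, and their 95% intervals together run from -0.79 to 0.79. Whether the probes of these relatives, Scd1 and Scd2, fully tell them apart was not tested.

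Several genes were read by more than 1 probe, and the probes of a gene did not always show the same change. Of the 37 genes, 17 had other kept probes, 22 in all, besides the brightest one that stands for the gene. In 14 of these 22 the change was larger than in the brightest probe, in 6 it had the opposite sign, and 9 rose past the threshold (3.17% of all 27284 kept probes did). The 6 of opposite sign belonged to Nsdhl (-0.15), Acss2 (-0.41), Elovl5 (-0.27) and Acaca, whose probes are given below. Counting any probe, 14 genes had at least 1 that rose and no probe fell. Since this count gives a gene with several probes more chances, and was not made over all genes, it is a description only.

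The second Hmgcs1 probe had 3.02 and 3.32 with DAPT, against 1.23 and 1.35 with vehicle, and rose by 1.88 ± 0.20 (limma adjusted p = 0.000382), more than the brighter one. For Lss the other probe rose by 1.07 ± 0.21 (adjusted p = 0.0112), and for Cyp51 the other probes rose by 1.17 and 0.97. Hsd17b7, a ketosteroid reductase whose brightest probe had a change of 0.34 ± 0.25, had a second probe that rose by 1.07 ± 0.26 (adjusted p = 0.0289). In these genes the dimmer probes showed the larger change.

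Acaca, the acetyl-CoA carboxylase that commits carbon to fatty acids, was read by 4 probes. The brightest had -0.02 and -0.22 with DAPT, against 0.07 and -0.27 with vehicle, a change of -0.02 ± 0.21. The other 3 had changes of 0.56, 0.80 and 0.91, the last 2 past the threshold (limma adjusted p = 0.0472 and 0.0299), so the direction for Acaca depends on the probe. Another Stard4 probe rose by 1.40 ± 0.20 in ratio (adjusted p = 0.00206 for the ratio). Its measured red signal was 2.30-fold higher with DAPT, an estimate with no test of its own. It was not well above background on either vehicle array. Dhcr7 had a second probe that rose by 0.92 ± 0.22. Fasn, Pmvk and Insig1 ran the other way, with the other probe below the brightest one in each. The other probe of Fasn stood at 0.06 ± 0.25, that of Pmvk at 0.39 ± 0.19 and that of Insig1 at 0.74 ± 0.22. None of these other probes passed (limma adjusted p = 0.907, 0.244 and 0.0642).

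**Figure D3:**
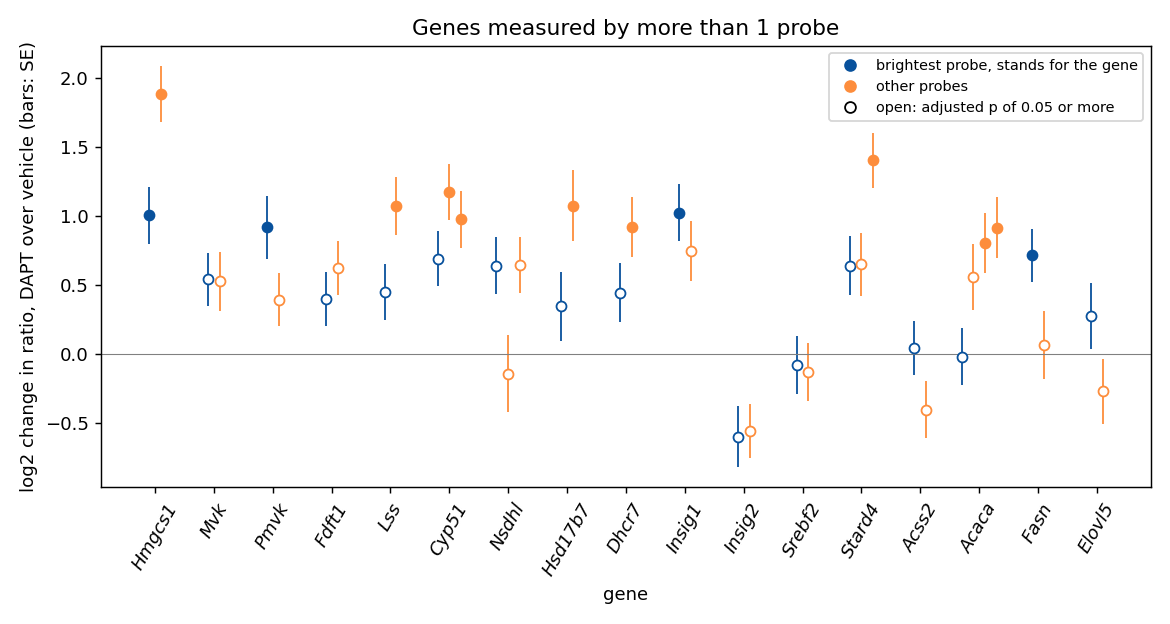
Log2 change with DAPT over vehicle ± SE (vertical axis) of every kept probe of the 17 genes with more than 1 (horizontal axis). Blue marks the brightest probe, which stands for the gene, orange the others, and filled points have an adjusted p under 0.05. The probes of Hmgcs1, Hsd17b7 and Acaca lie far apart, while those of Mvk, Insig2 and Srebf2 lie close together.

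A ratio can move through either channel, so both were followed after loess within and Aquantile normalization between arrays. The reference is one RNA pool, and its change between groups measures the arrays, not the cells. In the red channel of sphere RNA 32 of the 37 genes had a change above 0, with a median of 0.52, and in 21 (56.8%) both DAPT arrays lay above both vehicle arrays, against 21.7% of all genes. In the green channel of the reference the median was 0.17, and 10 genes lay higher without overlap, against 22.1% of all genes. No gene of the 37 passed in the red channel alone, where 1 of all 21464 genes passed, by a fall. At an unadjusted p under 0.05 (limma) 10 of the 37 differed in the red channel, against 2635 of all 21464 genes. In the green channel 1 of the 37 did, against 1706 of all genes.

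All 8 genes that rose in ratio also had a red change above 0 with groups that did not overlap. It was largest for Aacs, at 1.45 ± 0.34, with a green change of 0.49 ± 0.26. Hmgcs1 stood at 1.29 ± 0.56 in red and 0.28 ± 0.46 in green, and Insig1 at 1.15 ± 0.56 in red and 0.13 ± 0.45 in green. For Elovl6 the red change was 0.79 ± 0.41 and the green change -0.29 ± 0.31, and for Fasn they were 0.52 ± 0.32 and -0.19 ± 0.31. Part of the measured rise in ratio of Elovl6 and Fasn lay in the reference channel, though neither green change was beyond its SE.

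For Srebf1 both channels were higher with DAPT, red by 1.06 ± 0.46 and green by 0.78 ± 0.44, each without overlap and neither past the adjusted threshold, which leaves the small change in ratio given above. Acss2 behaved likewise, at 0.73 ± 0.30 in red and 0.69 ± 0.28 in green. The change of -0.60 in the ratio of Insig2 lay in the red channel, at -0.60 ± 0.29, with 0.00 ± 0.24 in green. Acly went the other way, with a red change of 0.18 ± 0.84 and a green change of -0.52 ± 0.58. Most of its measured change in ratio lay in the reference, though neither channel changed beyond its SE.

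**Figure D4:**
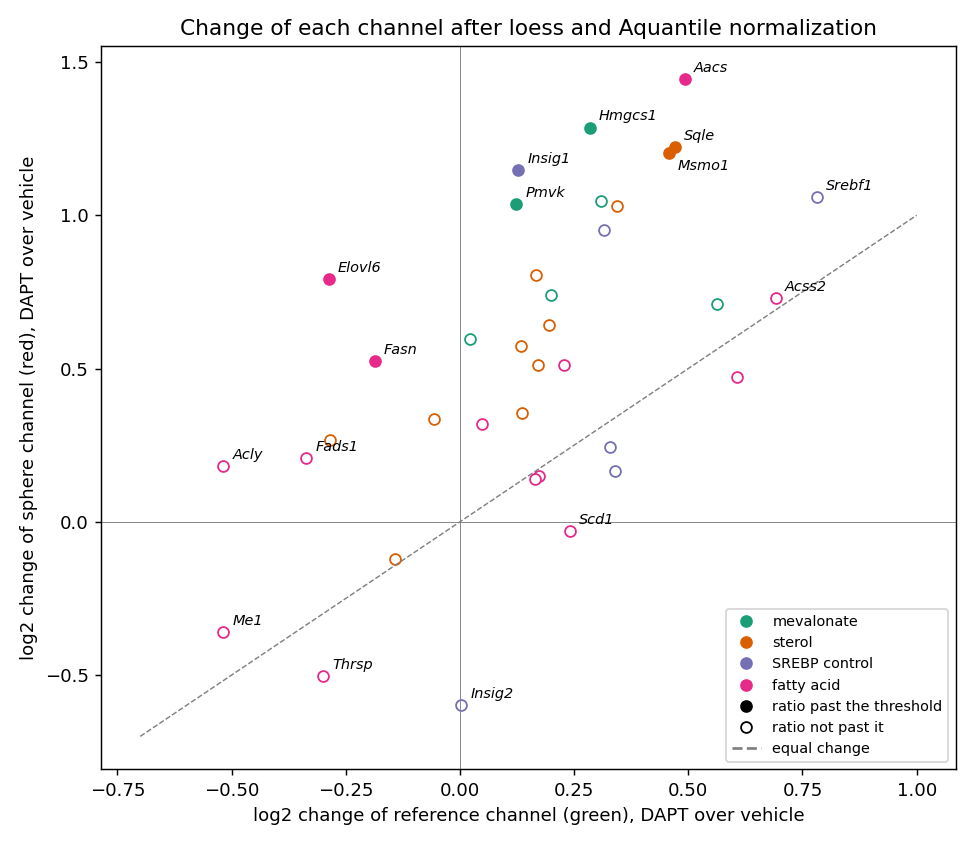
Log2 change with DAPT over vehicle of the red sphere channel (vertical axis) against that of the green reference channel (horizontal axis) for the 37 genes, coloured by pathway group and filled where the ratio passed the threshold. On the dashed line both channels change equally and the ratio does not move. The 8 filled points lie above it, with red changes of 0.52 to 1.45, and Acss2 lies close to it.

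Other lipid pathways gave context for these genes. The median of 17 further genes of fatty acid synthesis and elongation that were tested was 0.33. Of these, 2 rose (11.8%, against 2.90% of all genes) and none fell. These were Fads3, a desaturase relative, at 0.92 ± 0.21 (limma adjusted p = 0.0207), and Elovl4, an elongase for very long chains, whose ratio rose by 0.94 ± 0.21 (adjusted p = 0.0197 for the ratio). The measured red signal of Elovl4 was 1.77-fold higher with DAPT, and it was not well above background on either vehicle array. The red channel of Elovl4 alone did not pass (limma adjusted p = 0.351). In the side branches from isoprenoid diphosphates, such as prenylation, dolichol and ubiquinone, none of 9 genes passed (0 also at an unadjusted p under 0.05) and the median was 0.13.

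In sterol handling and efflux, 2 of 17 genes fell (3.93% of all genes did) and none rose, with a median of -0.13 against -0.06 for all genes. In 3 of the 17 both DAPT arrays lay above both vehicle arrays and in 6 below (35.3%, against 31.7% of all genes), so the list lay near the share of all genes. Npc2, the lysosomal cholesterol carrier, had 0.75 and 0.81 with DAPT, against 1.46 and 1.88 with vehicle, and fell by 0.89 (limma adjusted p = 0.0259). Abca1, the cholesterol exporter, fell by 0.93 in ratio (adjusted p = 0.0245 for the ratio). It was not well above background on either DAPT array, and its measured red signal was 2.32-fold lower with DAPT than with vehicle. The red channel of Abca1 alone did not pass (limma adjusted p = 0.274). Of 20 genes of fatty acid oxidation 4 fell and none rose, where 3.93% of all genes fell. The median of the 20 was -0.30, against -0.06 for all genes. Of the 20 changes 18 lay below 0 and 2 above, where 43.6% of all genes had a change above 0. Among the 4 that fell were the thiolase genes Acaa2 at -0.76 ± 0.20 (limma adjusted p = 0.0386) and Acaa1a at -0.69 ± 0.19 (0.0495). Most of the measured change in ratio of Acaa1a lay in the reference, with a red change of -0.23 ± 0.48 and a green change of 0.46 ± 0.47. Neither of these channel changes was beyond its SE. Of the 3 probes of Acaa1a 1 passed. Pdk4, a kinase that restrains pyruvate oxidation, fell too, at -0.88 ± 0.23 in ratio (limma adjusted p = 0.037). The measured red signal of Pdk4 was 1.81-fold lower with DAPT, where it was not well above background on either array. The red channel of Pdk4 alone did not pass (limma adjusted p = 0.348).

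Glycerolipid synthesis and storage genes went both ways, with a median of -0.09. Of 18 genes 2 rose (11.1%, against 2.90% of all genes) and 1 fell (5.56%, against 3.93%). Acsl5, an acyl-CoA synthetase, had 2.24 and 2.00 with DAPT, against 0.77 and 1.23 with vehicle, and rose by 1.12 ± 0.22 (limma adjusted p = 0.0102). Agpat2, an acyltransferase, rose by 0.82. Mgll, the monoglyceride lipase, had 0.03 and 0.14 with DAPT, against 2.03 and 1.41 with vehicle, and fell by 1.64 (limma adjusted p = 0.0015). Part of this fall in ratio lay in the reference channel, with a red change of -0.90 ± 0.28 and a green change of 0.74 ± 0.28.

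Other cells that can be rich in lipid or present in such cultures were followed by their markers. Of 7 adipocyte markers 4 were tested, and Lep, the leptin gene, rose by 1.50 ± 0.26 (limma adjusted p = 0.00544). Part of its rise in ratio lay in the reference channel, with a red change of 0.74 ± 0.30 and a green change of -0.76 ± 0.26. Adipoq at -0.36, Fabp4 at 0.31 and Cidec at -0.16 did not pass, and Plin1, Cfd and Retn did not pass the filter on dim probes. Of 5 sebocyte markers 3 were tested, none passed (1 had an unadjusted p under 0.05 in limma), and the changes ran from -0.44 to -0.18. Fibroblast markers, 4 of 6, fell with DAPT (66.7%, against 3.93% of all genes), among them Col1a2 at -1.85 ± 0.20. Among luminal markers 2 of 5 fell (40.0%, against 3.93% of all genes), with Krt19, a keratin, at -1.11 ± 0.19. None of 4 macrophage markers passed (0 also at an unadjusted p under 0.05). The part of these shifts in the lipid gene results was not tested.

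**Figure D5:**
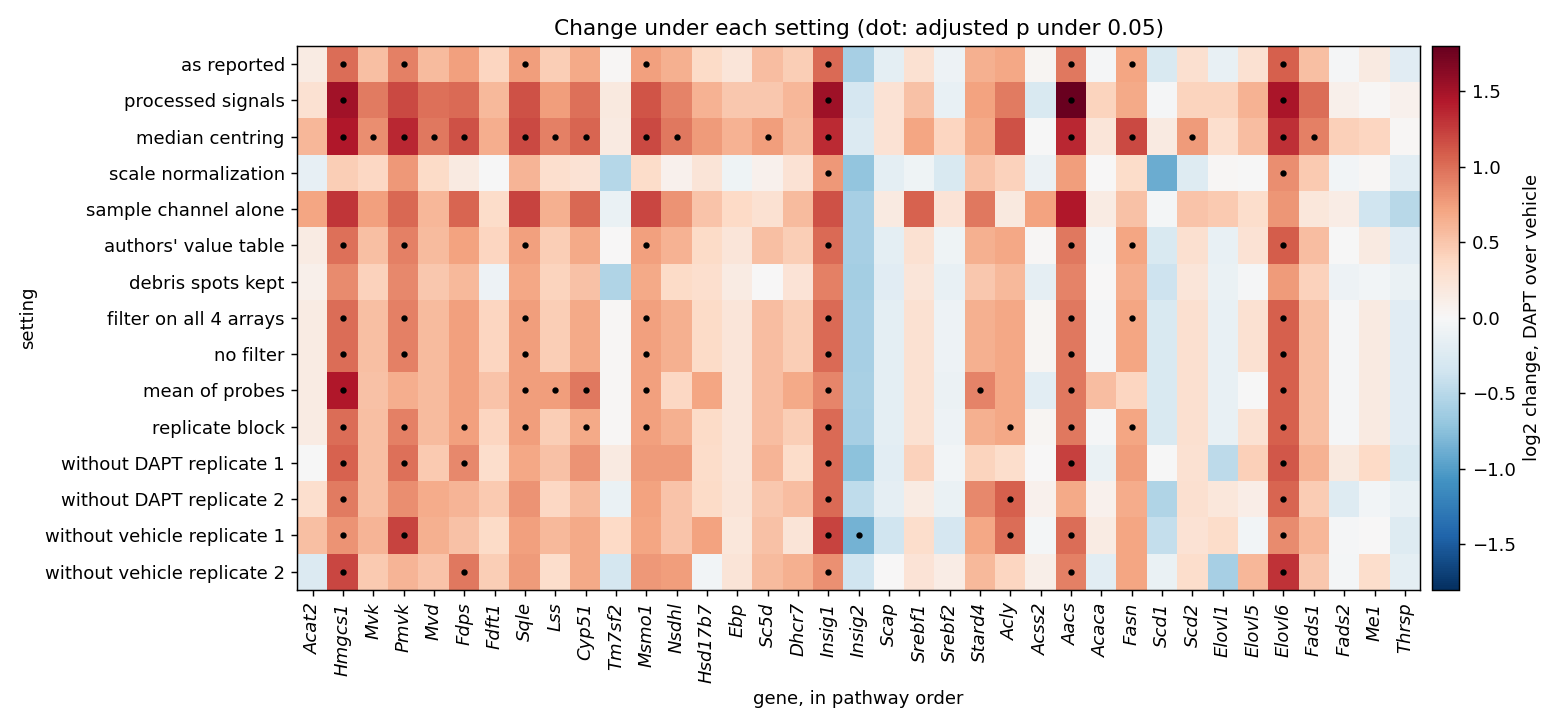
Log2 change with DAPT over vehicle (colour) of the 37 genes (columns, in pathway order) under the reported fit and 14 alternatives (rows), with a dot where the adjusted p was under 0.05. Hmgcs1, Insig1 and Elovl6 carry dots in every row that leaves out 1 array, and 17 genes carry them with median centring.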

How the data were processed

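Agilent Feature Extraction 10.7.3.1 made the scanner output, 1 file an array, per the file headers, with deposited median intensity of spot and local background in both channels, spot marks, processed intensity (background-subtracted and dye-normalized) and a log10 ratio of red over green, read here only to find the scale of the table the authors supplied. That deposited table gives log2 ratios. It correlated at 0.869 to 0.902 with the scanner ratios of its own array, its column medians were -0.015, -0.011, 0.00072 and -0.011 (DAPT 1 and 2, vehicle 1 and 2), and no source used here gives its normalization.

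Debris spots with a background over 5 times the array's median (13, all on DAPT 2) were left out. The median intensities were corrected with normexp (offset 50), and loess was fitted within arrays. Probes were named through RefSeq accessions (24375 of 41174), kept if red was well above background on each array of at least 1 group, and the brightest stood for its gene. No probe spot was saturated. Groups were compared with limma 3.58.1 in R 4.3.3 (threshold 0.05), which was tested on simulated data. The members and lists, and the treatment of debris, were chosen with earlier results of these data known. All 38 genes were named by rule, and in each other lipid list up to 4 genes past the threshold with the largest change, except that some items are not reported here. "At least" folds set the bright group's mean red signal against the dim probe's own or the lowest signal well above background, whichever is higher, and are open to dye bias. Alternatives changed the normalization, filter, spots, probe rule, pairing and arrays used.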

Additional observations from a re-analysis of the deposited data

How the results depend on the processing

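All 8 genes that rose kept a change above 0 in every alternative that measured them. The number of the 37 genes that rose was 4 with processed signals, 17 with median centring, 2 with scale normalization, 0 for the sample channel alone, 0 with debris spots kept and 0 without marked spots, where only 6 of the 37 were left and none of the 8. The count of 8 was 8 with the authors' value table and with the filter on all 4 arrays, 7 with no filter and 9 with the mean of probes. With the mean of probes, 6 of the 8 reported calls held. Leaving out 1 array, with the lone array of a group assumed to vary like the other group, gave 4 to 6 higher and 0 to 1 lower (Insig2 without vehicle replicate 1), with a median change of 0.40 to 0.52. The median of 0.44 became 0.62, 0.76, 0.082 and 0.52 with processed signals, median centring, scale normalization and the sample channel alone, 0.25 with debris kept and 0.53 with the mean of probes, and set against the median of all genes it lay between 0.12 (scale) and 0.65 (median centring). Median centring moved the median of all genes to 0.11, and processed signals to 0.09. The split of all calls was 42.5% higher, against 70.6% with median centring, 27.8% with scale normalization, 61.7% without marked spots and 5.41% with debris kept (4 higher and 70 lower, against 622 and 843). The numbers in the titles did not pair the arrays (correlation of deviations 0.085), and with them as a replicate block 11 genes rose and 0 fell, Fdps, Cyp51 and Acly besides the 8. Over all genes 888 rose with that block, against 622 without it. All arrays shared 1 slide, so no slide block was run.

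Signs turned for genes that had not passed. With scale normalization these were Acat2 -0.15, Fdft1 -0.013, Tm7sf2 -0.52, Ebp -0.078, Srebf1 -0.075, Acss2 -0.10, Acaca 0.0038, Scd2 -0.23, Elovl1 0.024 and Elovl5 -0.00077. With median centring they were Scap 0.26, Srebf2 0.39, Acss2 -0.0072, Acaca 0.22, Scd1 0.16, Elovl1 0.30, Fads2 0.43 and Thrsp 0.022, and with processed signals Scap 0.26, Acss2 -0.28, Acaca 0.40, Elovl1 0.40, Fads2 0.10 and Thrsp 0.080. With debris kept they were Fdft1 -0.10, Tm7sf2 -0.53, Acss2 -0.16, Acaca 0.0017, Elovl5 -0.019 and Me1 -0.054. The sample channel alone gave Tm7sf2 -0.12, Scap 0.16, Srebf2 0.24, Acaca 0.15, Elovl1 0.47, Fads2 0.14 and Me1 -0.36. The mean of probes gave Acss2 -0.18, Acaca 0.56 and Elovl5 -0.0014, and Acaca was 0.075 without marked spots. Without 1 array the ranges were -0.25 to 0.54 for Acat2, -0.31 to 0.35 for Tm7sf2, -0.045 to 0.73 for Hsd17b7, -0.36 to 0.011 for Scap, -0.30 to 0.13 for Srebf2, -0.031 to 0.11 for Acss2, -0.19 to 0.14 for Acaca, -0.60 to 0.33 for Elovl1, -0.056 to 0.60 for Elovl5, -0.23 to 0.18 for Fads2 and -0.043 to 0.36 for Me1. The cause of these turns was not tested. With 2 arrays a group, their number limits the precision.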
